A study of Mus musculus with 6 samples.

Results

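The miR-125, miR-99 and miR-100 family was followed in small RNA of the adult mouse hippocampus. The family was taken as every deposited feature named miR-125a, miR-125b, miR-99a, miR-99b or miR-100, which gave 12 rows and, with the 2 loci of miR-125b-5p counted once, 11 mature members of the 1900 miRNA names listed. Each of the 6 libraries held hippocampal RNA pooled from 3 male C57BL/6 mice aged 3 months. In both groups the mice were homozygous for floxed Dicer1 and were killed 3 weeks after tamoxifen. The 3 Dicer1-ifKO libraries came from mice in which CaMKIIa-creERT2 was also present, a transgene for a recombinase that tamoxifen activates and that is known to be active in excitatory forebrain neurons, and the 3 WT libraries from mice without it. The Dicer1 protein cuts miRNA precursor hairpins to their mature length. The comparison asks how these mature miRNAs stood after Dicer1 was deleted in those neurons, while glia, vessels and other neurons of the tissue kept the gene. In such bulk tissue fewer cells of a type and less RNA per cell cannot be told apart.

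The 5p arm of miR-125 is the mammalian counterpart of lin-4, the first miRNA described in worms. miR-99 and miR-100 belong to one of the oldest animal miRNA families, together with miR-10, and are known to repress Mtor and Igf1r. In mammals the genes lie in clusters that pair a miR-99 or miR-100 hairpin with a let-7 and a miR-125 hairpin. In neurons miR-125a is known for its action on the mRNA of the synaptic scaffold PSD-95, and miR-125b for its action on that of an NMDA receptor subunit.

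All 12 rows matched a RefSeq mature sequence at the same coordinates (GRCm38.p6). The 5p sequences are shown because they define the 2 seed groups on which the family rests. Sequences run 5′ to 3′, and capitals mark the seed, bases 2 to 8, with which a miRNA pairs to its targets.
miR-125a-5p: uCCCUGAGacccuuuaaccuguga
miR-125b-5p: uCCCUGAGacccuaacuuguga
miR-99a-5p: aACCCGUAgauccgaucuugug
miR-99b-5p: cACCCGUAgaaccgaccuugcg
miR-100-5p: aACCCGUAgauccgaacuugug
Counted from the 5′ end, miR-99a-5p and miR-100-5p differ at 1 base, U16A (miR-99a first). miR-99a-5p and miR-99b-5p differ at 4 bases, A1C, U11A, U16C and U21C. miR-125b-5p and the longer miR-125a-5p share their first 13 bases. Outside the family, 3 listed miRNAs carry the miR-125 seed, of which miR-6367 and miR-6394 had 0 counts in every library and miR-351-5p (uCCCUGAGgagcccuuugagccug) had 509 to 812. No other listed miRNA with a RefSeq sequence had the seed of miR-99 and miR-100.

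The 3p arms are shown because the only call within the family fell on one of them. miR-99a-3p and miR-99b-3p share a seed, and the others each have their own.
miR-99a-3p: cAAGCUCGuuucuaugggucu
miR-99b-3p: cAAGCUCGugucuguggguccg
miR-100-3p: aCAAGCUUgugucuauagguau
miR-125a-3p: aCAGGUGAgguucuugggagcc
miR-125b-1-3p: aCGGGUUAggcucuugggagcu
miR-125b-2-3p: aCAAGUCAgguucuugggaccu
The 3p arms of the 2 miR-125b hairpins differ at 5 bases, G3A, G4A, U7C, C11U and G20C (miR-125b-1 first). They therefore tell the loci apart, which the identical 5p arms cannot do. The arms within a hairpin are shown in capitals for miR-125a and for miR-125b-1, with the 5p arm first and the loop between the arms in lower case.
Mir125a: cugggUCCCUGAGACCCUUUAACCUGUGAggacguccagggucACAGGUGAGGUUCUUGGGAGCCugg
Mir125b-1: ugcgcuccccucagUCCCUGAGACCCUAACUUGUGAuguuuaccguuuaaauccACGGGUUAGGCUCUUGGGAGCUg

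The members come from 3 clusters on plus strands. On chromosome 17 (GRCm38), miR-99b-5p lies at chr17:17830194-17830215, miR-99b-3p at chr17:17830232-17830253, miR-125a-5p at chr17:17830817-17830840 and miR-125a-3p at chr17:17830855-17830876. The 5p arms of let-7e and miR-125a start 172 and 623 bases after that of miR-99b. In GENCODE M21 these rows lie in introns of the protein-coding gene Spaca6, except that miR-125a-5p falls in an exon of at least 1 Spaca6 transcript. On chromosome 9, miR-100-5p (chr9:41531437-41531458) and miR-125b-1 (5p arm chr9:41581940-41581961) lie 50503 bases apart, with let-7a-2 between them at 5295 bases. Both lie in introns of 3110039I08Rik, annotated as a processed transcript. miR-100 also lies opposite an exon of the antisense Gm48742, and miR-125b-1 in an exon of the sense-intronic Gm28119. On chromosome 16, miR-99a-5p (chr16:77598940-77598961) and miR-125b-2 (5p arm chr16:77646279-77646300) lie 47339 bases apart in introns of the processed transcript Mir99ahg, with let-7c-1 at 732 bases.

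The libraries held 2318205 to 3179363 counts in miRNA rows, of which the family had 204646 to 334855. The span of the targeted gene, Dicer1, had only 45, 33 and 47 counts across WT and 37, 32 and 35 across Dicer1-ifKO. A count over the whole span of the gene in small RNA does not check the deletion. The summed level of 5 miRNAs known from neurons (miR-124-3p, miR-128-3p, miR-132-3p, miR-138-5p and miR-9-5p) lay at 3125 to 4025 CPM for WT and 2612 to 3285 CPM for Dicer1-ifKO, CPM being counts scaled to a common library total after TMM. The log2 changes of these 5 (Dicer1-ifKO against WT) were -0.03, -0.47, -0.37, -0.19 and 0.01 in the order named. Values of 3 libraries are given in the order of replicates 1, 2 and 3. WT replicate 1 stood apart from the other 2 WT libraries in the 5p arms of miR-99a, miR-99b and miR-100.

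The family held 8.72%, 11.6% and 9.63% of mature miRNA counts across WT and 8.83%, 10.8% and 10.9% across Dicer1-ifKO, so the groups overlapped. The means were 9.98% ± 1.46 and 10.2% ± 1.17 (SD, n = 3 each). miR-125a-5p ranked 5th and miR-125b-5p 6th among all miRNAs by mean count. These 2 members made up 81.8% ± 2.91 of the family's counts in WT and 81.5% ± 0.996 across Dicer1-ifKO. The 3 members with the miR-99 and miR-100 seed made up 16.8% ± 2.99 and 17% ± 0.762, and the 6 members of the 3p arms the small rest, 1.45% ± 0.208 and 1.5% ± 0.239 (SD, n = 3 each). The shares of the 2 seeds overlapped between the genotypes, and WT replicate 1 gave the miR-99 and miR-100 seed 13.4% against 16.4% to 19.2% in the other libraries. For shares of mature miRNA counts, the mean log2 share in WT was subtracted from that in Dicer1-ifKO. Without WT replicate 1 this difference went from 0.03 to -0.06 for the family. For the miR-99 and miR-100 seed it went from 0.07 to -0.18.

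**Figure D1:**
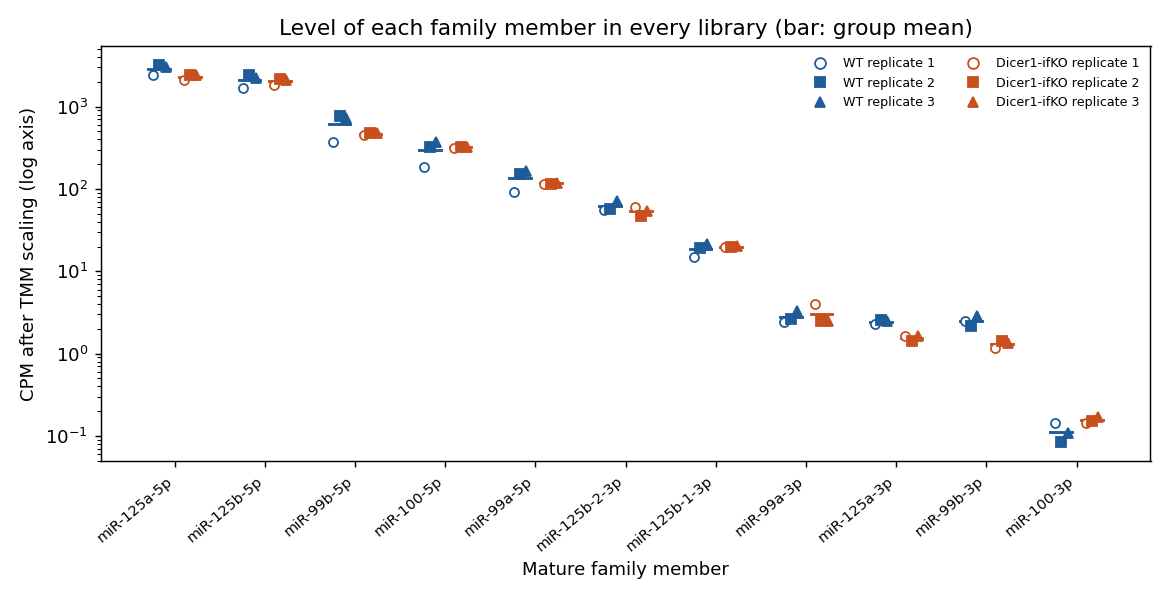
Level of each mature member in CPM after TMM scaling (log axis) in the 3 WT and 3 Dicer1-ifKO libraries, ordered by mean count, with points for libraries and bars for group means. miR-125a-5p stands at 2115 to 3223 CPM and miR-100-3p at 0.0834 to 0.17 CPM, and WT replicate 1 (open blue circles) is the lowest WT library for every 5p arm.

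Within the family 1 member was called lower in Dicer1-ifKO hippocampus and 0 were called higher. Of the 11 members 10 had enough counts to be tested, and miR-99b-3p, the minor arm of the miR-99b hairpin, was lower in edgeR's quasi-likelihood test (adjusted p = 0.0429, Benjamini-Hochberg over 6502 features, threshold 0.05). Over all tested features 0.784% were called lower and 0.0154% higher, and of the 509 tested miRNAs 6.88% and 0%, so 1 of 10 members is near the share among miRNAs. At an unadjusted p under 0.05 edgeR gave 3 of 10 members lower and 0 higher, beside 163 lower and 10 higher of the 509 miRNAs, so that the members stood near the background there too. DESeq2 called 1 lower and 0 higher after adjustment. It gave an adjusted p to only 3088 features, of which 1.98% were lower and 0.0324% higher. Of the 410 miRNAs among them 8.54% were lower. That is 35 miRNAs called lower, as many as with edgeR. The median log2 change of the tested members was -0.21, against -0.25 for all tested miRNAs and -0.05 for all features. Of the 10 members 7 lay below 0, as did 76.4% of tested miRNAs. When scaling used the miRNA rows only, 4 did, beside 48.1% of tested miRNAs. That scaling moved the median of all features from -0.05 to 0.21, so directions below hold relative to it. The 4 that stayed below 0 were the 4 members of the chromosome 17 cluster.

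miR-99b-3p stood at 2.52, 2.15 and 2.88 CPM across WT and at 1.18, 1.41 and 1.36 CPM across Dicer1-ifKO, from 103 to 133 and 49 to 75 counts. Every Dicer1-ifKO library lay below every WT library. Its mean went from 2.51 ± 0.363 to 1.32 ± 0.121 CPM (SD, n = 3 each), a ratio of 0.524 and a log2 change of -0.93 ± 0.19 (SE). The direction held under every alternative tried, from -1.02 to -0.65. The call did not: without WT replicate 3, or without any 1 of the 3 Dicer1-ifKO libraries, the edgeR adjusted p was 0.208 to 0.387. Under scaling on miRNA rows only the log2 change was -0.66 (edgeR adjusted p = 0.362). Its sequence has a GC content of 63.6%, and with a GC trend over the miRNAs removed the log2 change was -0.84 (edgeR adjusted p = 0.0956).

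The other arm of the same hairpin, miR-99b-5p, was far more abundant and did not pass. It had 377, 762 and 727 CPM across WT and 450, 477 and 477 CPM across Dicer1-ifKO. WT replicate 1 lay below all Dicer1-ifKO libraries and the other WT libraries above them, so the groups overlapped. The log2 change was -0.41 ± 0.24 (SE, edgeR adjusted p = 0.824). Without WT replicate 1 the log2 change was -0.67 ± 0.12 (SE) and passed (edgeR adjusted p = 0.00368), where 1.99% of all features and 13% of miRNAs were called lower and 0.0433% of all features higher. The change was smaller without WT replicate 2 (log2 -0.24), without WT replicate 3 (log2 -0.24) and under scaling on miRNA rows only (log2 -0.13). miR-99b-5p was the only other member called under any alternative tried.

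miR-125a-5p, the most abundant member, had 2432, 3223 and 2998 CPM across WT and 2115, 2409 and 2400 CPM across Dicer1-ifKO. The groups did not overlap, although WT replicate 1 lay close to the Dicer1-ifKO libraries. Its log2 change, -0.32 ± 0.14 (SE), was not called (edgeR adjusted p = 0.541), and its 95% interval ran from -0.61 to -0.03. Under scaling on miRNA rows only the log2 change was -0.06, and without WT replicate 1 it was -0.43 (edgeR adjusted p = 0.0613). miR-125a-3p, its minor arm, had 2.32, 2.54 and 2.46 CPM in WT and 1.64, 1.43 and 1.63 CPM across Dicer1-ifKO, from 113 to 122 and 68 to 77 counts. Here too the groups did not overlap, and the spread within each group was small, yet its log2 change, -0.64 ± 0.17 (SE), missed the threshold (edgeR adjusted p = 0.160). Under scaling on miRNA rows only it was -0.39. Groups without overlap towards lower values were found for 3 of the 10 members, all on chromosome 17, and for 34.4% of all tested miRNAs. Towards higher values there were 0 of the 10, beside 2.36% of miRNAs.

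The members of the chromosome 9 and 16 clusters lay around 0, and none of the 6 tested passed. miR-125b-5p, whose reads come from both clusters, had 1707, 2443 and 2251 CPM across WT and 1850, 2192 and 2108 CPM across Dicer1-ifKO. The Dicer1-ifKO libraries lay inside the WT range. The log2 change was -0.06 ± 0.15 (SE) with a 95% interval from -0.38 to 0.26, and its sign turned under scaling on miRNA rows only (0.21), on library totals alone (0.0059) and when WT replicate 2 (0.06), WT replicate 3 (0.03) or Dicer1-ifKO replicate 1 was left out. Its reads were nearly equal at the 2 loci, 298682 counts on chromosome 9 and 298289 on chromosome 16, and the identical sequence does not tell which locus made them. The levels, rank, shares and ratios of miR-125b-5p rest on the sum of the 2 rows. They would shift if each read was counted at both loci.

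The 3p arms, which do differ between the loci, were unequal. miR-125b-2-3p of chromosome 16 had 55.4, 57.6 and 71.2 CPM across WT and 60.5, 47.2 and 54.1 CPM across Dicer1-ifKO. miR-125b-1-3p of chromosome 9 had 15.0, 19.5 and 21.4 CPM in WT and 19.5, 19.6 and 20.4 CPM across Dicer1-ifKO. The chromosome 16 product was thus the more abundant in all 6 libraries, while for each product the genotypes overlapped. The log2 changes were -0.19 ± 0.16 and 0.09 ± 0.17 (SE, edgeR adjusted p = 0.926 and 0.988), of which the first turned to 0.07 under scaling on miRNA rows only and the second to -0.05 without WT replicate 1. Under scaling on miRNA rows only the second was 0.36.

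miR-100-5p had 184, 321 and 377 CPM across WT and 314, 327 and 320 CPM across Dicer1-ifKO. The Dicer1-ifKO libraries lay close together, inside a WT range that WT replicate 1 widened. The log2 change of 0.12 ± 0.23 (SE) turned to -0.13 ± 0.13 without that library and was 0.41 ± 0.20 under scaling on miRNA rows only. miR-99a-5p, which differs from miR-100-5p at 1 base, had 92.4, 150 and 167 CPM in WT and 116, 116 and 118 CPM across Dicer1-ifKO. Its groups overlapped through WT replicate 1, and its log2 change was -0.22 ± 0.19 (SE), -0.44 ± 0.13 without that library (edgeR adjusted p = 0.111) and 0.06 under scaling on miRNA rows only. Without WT replicate 3 it was -0.0088. miR-99a-3p had 2.44 to 3.26 CPM in WT and 2.51 to 4.0 CPM in Dicer1-ifKO (log2 0.12 ± 0.22 SE, 0.37 under scaling on miRNA rows only). miR-100-3p had 7, 4 and 5 counts across WT and 6, 8 and 8 across Dicer1-ifKO, too few for the count filter of the main fit.

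**Figure D2:**
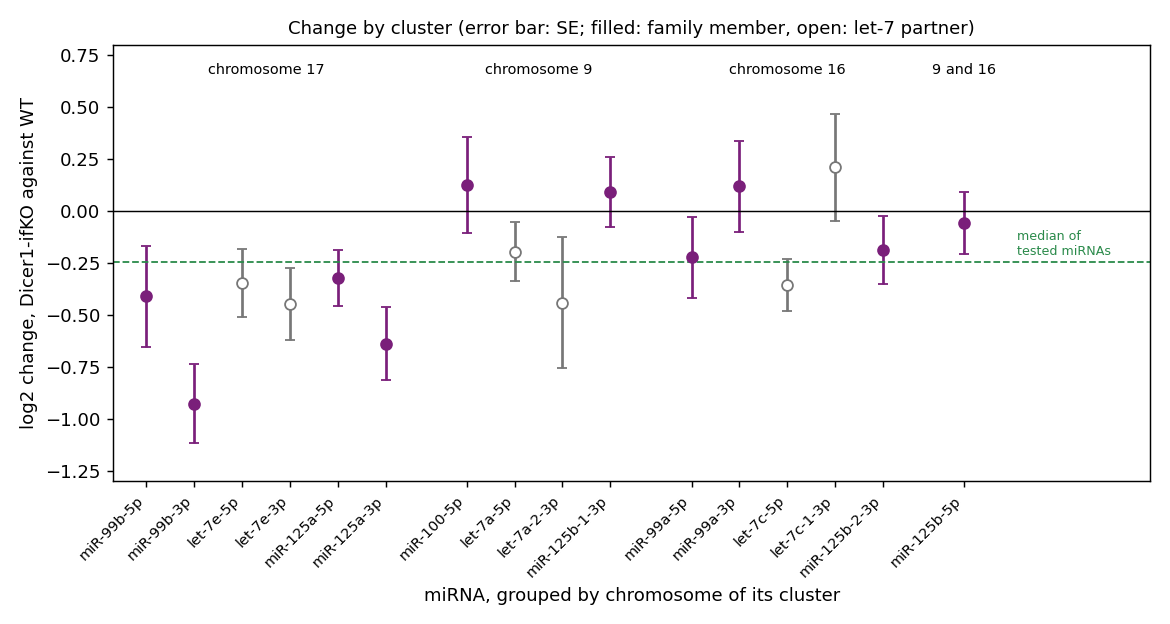
log2 change in Dicer1-ifKO against WT (points, with SE) for the tested family members (filled) and for the let-7 miRNAs of their clusters (open), grouped by chromosome, with miR-125b-5p apart because it comes from 2 loci and the median of tested miRNAs as a dashed line. The chromosome 17 members lie between -0.93 and -0.32, and the members of the other clusters between -0.22 and 0.12.

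**Figure D3:**
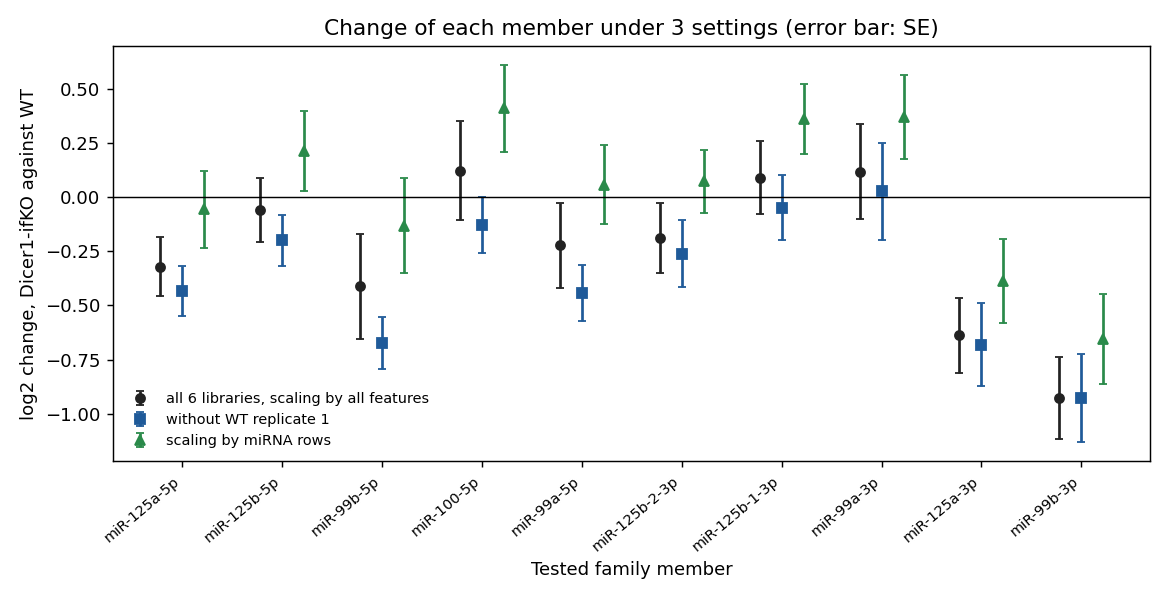
log2 change (points, with SE) of each tested member with all 6 libraries and scaling by all features, without WT replicate 1, and under scaling on miRNA rows only. Scaling by miRNA rows moves every member up, and leaving out WT replicate 1 moves the abundant 5p arms down, with the miR-99b-5p value at -0.67.

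The let-7 partners give the rest of each cluster. Of the 6 partners 0 passed in either direction (edgeR), and their median log2 change was -0.35. On chromosome 17, let-7e-5p averaged 151 ± 26.8 CPM for WT and 119 ± 14.6 CPM for Dicer1-ifKO (SD, n = 3 each; log2 -0.35 ± 0.16 SE) and let-7e-3p averaged 4.46 ± 0.414 and 3.27 ± 0.347 CPM (log2 -0.45 ± 0.17 SE), neither with overlap between the groups. On the other chromosomes let-7a-5p (log2 -0.20) and let-7c-5p (log2 -0.36, groups without overlap) are each made from more than 1 locus, so their values do not belong to these clusters alone. The minor arms that are specific to them, let-7a-2-3p and let-7c-1-3p, had log2 changes of -0.44 ± 0.32 and 0.21 ± 0.26 (SE) at 17 and 19 counts per library on average. Of the relatives by sequence outside the clusters, miR-351-5p stood at 12.2 ± 1.53 and 14.7 ± 1.20 CPM (log2 0.28, groups without overlap), miR-10a-5p at 3.55 ± 0.688 and 4.66 ± 0.792 CPM (log2 0.39), and miR-10b-5p at 0.416 ± 0.221 and 0.502 ± 0.0989 CPM (SD, n = 3 each; log2 0.28). None of these 3 passed.

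Ratios of 2 members within a library do not depend on the scaling, and 9 such ratios were tested with a two-sided exact permutation test over libraries, whose smallest p here is 0.1. The ratio of miR-125a-5p to miR-125b-5p was 1.42, 1.32 and 1.33 across WT and 1.14, 1.10 and 1.14 across Dicer1-ifKO. All Dicer1-ifKO libraries lay below all WT libraries, with means of 1.36 ± 0.0574 and 1.13 ± 0.0240 (SD, n = 3 each), a log2 difference of -0.27 (exact permutation p = 0.1, adjusted p = 0.3 over the 9 ratios). The ratio of miR-99a-5p to miR-100-5p was 0.502, 0.468 and 0.442 in WT and 0.371, 0.354 and 0.370 across Dicer1-ifKO, again without overlap. Its log2 difference was -0.36, with means of 0.471 ± 0.0305 and 0.365 ± 0.00960 (n = 3 each, SD) and an exact permutation p of 0.1 (0.3 when adjusted). WT replicate 1, which was low in each of these miRNAs, was the highest WT library in both ratios, and without it the log2 differences were -0.23 and -0.32.

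The remaining ratios between members overlapped between the genotypes. miR-99b-5p was 4.51 ± 0.511 times miR-99a-5p in WT and 4.0 ± 0.131 times with Dicer1-ifKO (n = 3 each, SD; exact permutation p = 0.2). Within the chromosome 17 cluster miR-99b-5p was 0.155, 0.236 and 0.242 times miR-125a-5p in WT and 0.213, 0.198 and 0.199 times across Dicer1-ifKO, so that WT replicate 1 was the lowest of the 6 (log2 difference -0.03, exact permutation p = 1). miR-125b-2-3p was 3.69, 2.96 and 3.32 times miR-125b-1-3p in WT and 3.11, 2.40 and 2.65 times in Dicer1-ifKO (log2 difference -0.29, exact permutation p = 0.2, adjusted p = 0.36).

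**Figure D4:**
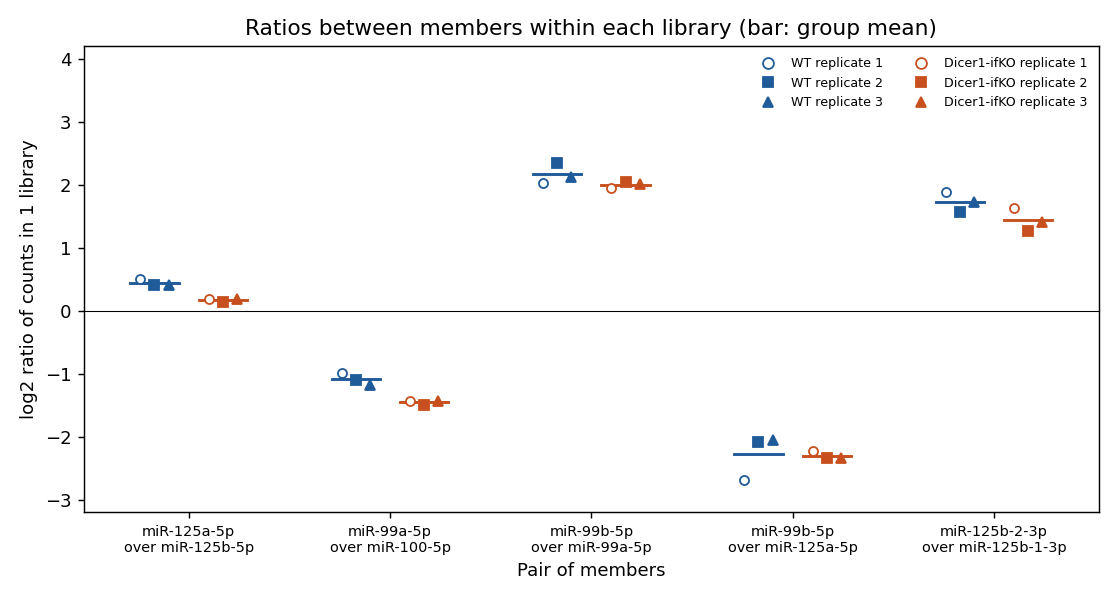
log2 ratio of the counts of 2 members in the same library for 5 pairs, with points for the 3 WT and 3 Dicer1-ifKO libraries and bars for group means. The groups do not overlap for miR-125a-5p over miR-125b-5p and for miR-99a-5p over miR-100-5p, and WT replicate 1 is the lowest library for miR-99b-5p over miR-125a-5p.

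The 5p arm outnumbered the 3p arm in each of the 4 comparisons of arms, by very different margins. miR-125a-5p outnumbered miR-125a-3p by 1050, 1267 and 1216 times across WT and by 1290, 1682 and 1468 times across Dicer1-ifKO. All Dicer1-ifKO libraries lay above all WT libraries, with a log2 difference of 0.32 (exact permutation p = 0.1, adjusted p = 0.3). miR-99b-5p outnumbered miR-99b-3p by 150, 355 and 253 times in WT and by 381, 338 and 351 times across Dicer1-ifKO, which overlapped through WT replicate 2 (log2 difference 0.58, exact permutation p = 0.3). The difference was 0.24 without WT replicate 1 and 0.87 without WT replicate 2. For miR-99a the ratio was 48.8 ± 10 in WT and 40.7 ± 10.1 in Dicer1-ifKO (log2 difference -0.27, exact permutation p = 0.4). It was -0.45 without WT replicate 1 and -0.05 without Dicer1-ifKO replicate 1. miR-125b-5p, set against both of its 3p arms together, had ratios of 26.7 ± 4.28 and 28.1 ± 4.85 (SD, n = 3 each; exact permutation p = 0.9).

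Spans of host transcripts in the sense direction were read only around miR-125b-1 and miR-125a, and few of their counts lay outside the miRNA rows. No such span was read for miR-99a, miR-99b, miR-100 or miR-125b-2. The deposited spans around the hairpins hold the miRNA reads too, so their counts were split. The span of 2610203C20Rik around miR-125b-1 had 39260 to 59438 counts, of which 5 to 10 per library lay outside the miRNA rows. The span of the Ncrna00085 transcript around miR-125a had 122, 141 and 149 counts outside the rows of miR-125a-5p and miR-125a-3p across WT and 155, 147 and 126 across Dicer1-ifKO. These remaining counts were as many as those of miR-125a-3p or more, and they overlapped between the genotypes. Both spans also hold the rest of the hairpin, and whether the remaining counts come from the host transcript was not tested. The span of Gm11146, on the minus strand opposite miR-99a and let-7c-1, held their plus-strand counts and 2 to 18 more, so counting took no notice of strand.

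The miRNAs outside the family with profiles most like those of the 5p arms over the 6 libraries were sought. Likeness was the root-mean-square distance between log2 CPM profiles, each centred on its own mean, among 351 miRNAs with at least 50 counts per library on average. Nearest to miR-125a-5p were miR-1843b-3p (0.053), miR-328-3p (0.053) and its cluster partner let-7e-3p (0.084), against a median distance of 0.253. Nearest to miR-125b-5p were miR-92b-3p (0.071), miR-485-5p (0.078) and miR-5099 (0.097). miR-501-3p was the nearest to miR-99a-5p (0.105), miR-99b-5p (0.159) and miR-100-5p (0.125) alike. Further neighbours were miR-342-5p (0.109) and miR-485-5p (0.112) of miR-99a-5p, miR-485-5p (0.173) and miR-664-5p (0.192) of miR-99b-5p, and miR-423-5p (0.145) and miR-134-3p (0.187) of miR-100-5p. For miR-99b-5p a family member, miR-99a-5p, was nearer than any of these. Among members with a shared seed the distance was 0.140 between miR-125a-5p and miR-125b-5p, 0.127 between miR-99a-5p and miR-99b-5p, and 0.191 between miR-99a-5p and miR-100-5p. Other pairs lay further apart, such as 0.332 between miR-125a-5p and miR-100-5p, the largest among 5p arms. In the chromosome 17 cluster it was 0.212 between miR-125a-5p and miR-99b-5p. Between miR-99b-5p and miR-99b-3p it was 0.460, against a median distance of 0.365 for miR-99b-5p.

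Markers of the cell types of the tissue were read in the same libraries, and their part in the results was not tested. Of the lists for neurons (5 tested), astrocytes (2), oligodendrocytes (3), microglia and leukocytes (2), endothelium and smooth muscle (4), erythrocytes (2) and choroid plexus (3), 0 members passed in either direction by edgeR. Median log2 changes were -0.19, -0.27, 0.15, 0.12, 0.11, -0.04 and -0.66 in that order. The microglia and leukocyte list was planned with 5 members, of which 3 were among the deposited features. Its median rests on miR-146a-5p and miR-150-5p alone. The erythrocyte list was planned with 3 members, of which 2 were among the features. The summed level of the choroid plexus list, nearly all of it miR-204-5p (log2 -0.57, edgeR adjusted p = 0.066), was 320 to 347 CPM in WT and 219 to 238 CPM across Dicer1-ifKO.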

How the data were processed

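Small RNA was sequenced with the Illumina TruSeq small RNA protocol, per the labels' protocols. The design text gives 12 mice per genotype, while 3 pools of 3 make 9. Groups and replicate numbers come from the sample titles. The deposited files list 109108 features, each with a raw read count, which the authors left unscaled, and a normalized signal that the authors made from it with 1 constant per library, and which was not used further. BWA, DESeq2, CASAVA 1.8.2, SAMtools 0.1.18 and the mouse build GRCm38 (mm10) stand in the submitters' processing notes, with no roles given. How reads with several alignments were counted is not given in the sources used here.

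Rows of 1 mature name were summed over loci, and identical rows of 1 gene were counted once. edgeR 4.0.16 in R 4.3.3 was run with filterByExpr by group (minimum count 10), TMM, robust glmQLFit and glmQLFTest (two-sided), and p-values were adjusted over 6502 features by Benjamini-Hochberg. A check of it on simulated data used the same spread for every feature and changes larger than any member's in the main fit. That check does not cover smaller changes. Standard errors were derived from the F statistic. CPM refers to summed feature counts, in which a read is counted in every feature holding it, and not to reads. Ratios used a pseudocount of 0.5. Every member was named, with its cluster partners, relatives, host spans and 3 nearest profiles per 5p arm. Alternatives were other scalings, DESeq2 1.42.0, other filters, single loci, miRNA rows alone, the replicate block, each library left out and, chosen after seeing the data, removal of a GC trend (loess, span 0.75). Members and lists were chosen with earlier results of these data known. Replicates are pools, so p-values measure the spread between pools.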

Additional observations from a re-analysis of the deposited data

How the results depend on the processing

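The count of members called lower was 1 with DESeq2, with DESeq2 size factors, with miRNA rows alone, without a count filter and with loci apart. It was 0 on library totals alone, under scaling on miRNA rows only, with a mean of at least 50 counts and with the GC trend removed, and 0 to 2 with 1 library left out: 2 without WT replicate 1 and 0 without WT replicate 3 or any 1 Dicer1-ifKO library. 0 members were higher under any of these. Of all tested miRNAs 0.19% to 13% were called lower over the settings. The share was 0.19% without Dicer1-ifKO replicate 2 or 3, 3.46% without Dicer1-ifKO replicate 1 and 2.31% without WT replicate 3. It was 2.95% on library totals alone and 1.38% under scaling on miRNA rows only. Higher miRNAs were 3.31% with miRNA rows alone and 0% in every other setting. In the settings that tested all features, 0.0139% to 1.99% of them were lower and 0% to 0.0433% higher. With the replicate number as a block the count of members called lower was 0, beside 0.589% of miRNAs (miR-99b-3p log2 -0.92, edgeR adjusted p = 0.175). Deviations of same-numbered libraries had correlations of -0.18, 0.07 and -0.16 over 6502 features and of -0.05, 0.25 and -0.26 over 509 miRNAs. With 3 libraries per group such values cannot decide whether the numbers pair the libraries, and the main fit left them unpaired.

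Signs turned in the cases that follow, and the cause was not tested. With 1 library left out, log2 changes ran from -0.13 to 0.39 for miR-100-5p, -0.0481 to 0.247 for miR-125b-1-3p, -0.199 to 0.0584 for miR-125b-5p and -0.15 to 0.30 for miR-99a-3p, and log2 ratio differences from -0.0525 to 0.200 for miR-125b-5p over its 3p arms and -0.238 to 0.0840 for miR-99b-5p over miR-125a-5p. Under scaling on miRNA rows only and with miRNA rows alone, miR-125b-2-3p was at 0.0731 and 0.074, miR-125b-5p at 0.212 and 0.212, and miR-99a-5p at 0.0573 and 0.0583. On library totals alone miR-125b-5p was at 0.00593. As shares of all features instead of miRNAs, log2 ratios went from 0.0871 to -0.0806 for the 3p arms, 0.0316 to -0.136 for the family, 0.0273 to -0.140 for the miR-125 seed and 0.0656 to -0.102 for the miR-99 and miR-100 seed. With 1 library left out the last 3 ran from -0.0607 to 0.144, -0.0372 to 0.137 and -0.179 to 0.224. miR-100-3p, at 4 to 8 counts per library, fell below the count filter of the main fit, and no log2 change is given for it.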
